A study of Mus musculus with 32 samples.

Results

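Extraocular muscle (EOM), the muscle that turns the eye, was compared between albino B6(CG)Tyr(c-2J)/J mice and pigmented C57BL/6 mice, 4 libraries against 4, out of 32 libraries in the whole series. The series measured RNA by sequencing in EOM, in tibialis anterior (TA, a limb muscle) and in the oculomotor (CN3) and abducens (CN6) samples of the brainstem. The 4 C57BL/6 libraries were taken by their label. The 4 albino libraries were chosen by measured values of these data: among 16 albino libraries, those with more than 1000 CPM (counts scaled to the library total) of both Ckm and Myh13 were used. Of these 4, 2 are labelled albino EOM (albino EOM 3 and albino EOM 4), and 2 carry a CN3 label and were reassigned to EOM by the markers (albino CN3 3 and albino CN3 4). The 2 other libraries labelled albino EOM did not meet the rule and were not used here. The labels give the strain and the tissue, and extraction with RNeasy Mini Kits (Fibrous Tissue or Lipid Tissue). They give no age, sex, C57BL/6 substrain or time of collection, and they do not say that replicates are separate animals, so each p-value measures the spread between these samples.

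Albinism in this strain comes from a changed Tyr, which encodes tyrosinase, the enzyme that starts melanin synthesis in pigment cells, and the series concerns the eye movements of such mice. EOM differs from limb muscle in that it keeps developmental and cardiac myosins in the adult, adds Myh13 and Myh15 and lacks the Hox code of the limb. Like other muscles it runs a circadian clock, in which BMAL1 (the product of Arntl) with CLOCK or NPAS2 drives the Per, Cry and Nr1d genes, whose products repress that drive in turn.

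Ckm, the muscle creatine kinase, was at 5569 and 5806 CPM in albino EOM 3 and 4, at 5462 and 5320 CPM in albino CN3 3 and 4, and at 4279 to 4826 CPM in the C57BL/6 libraries. Myh13, the superfast myosin of eye muscle, was at 4459 and 4378 CPM in albino EOM 3 and 4, at 3742 and 3765 CPM in albino CN3 3 and 4, and at 4272 to 4980 CPM in C57BL/6. These genes chose the libraries, so their values are a description. Outside the rule, the albino library with the next highest Myh13 had 94.0 CPM, and the C57BL/6 TA libraries had 23.8 to 34.8 CPM.

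Markers that the rule did not use were closer to C57BL/6 EOM than to limb muscle in all 4 albino libraries. Myl4, an atrial and embryonic myosin light chain, was at 25.3 to 38.0 CPM in albino libraries and 29.2 to 35.9 CPM in C57BL/6 EOM, against 7.19 to 10.3 CPM in C57BL/6 TA. Myh6, the alpha-cardiac myosin, was at 25.4 to 31.8 CPM in albino libraries and 34.5 to 45.4 CPM in C57BL/6 EOM, against 4.03 to 7.22 CPM in TA. Hoxa9 and Hoxa11, which give limb position, had 0 counts in all 8 libraries, where 3 counts would be 0.123 to 0.162 CPM. Hoxc10 did not pass 0.848 CPM in albino libraries and 0.0918 CPM in C57BL/6 EOM, against 86.2 to 98.7 CPM in TA. Snap25, a neuronal gene at 2578 to 2966 CPM in the C57BL/6 CN3 libraries, was at 56.9, 7.71, 8.97 and 12.7 CPM in albino EOM 3, EOM 4, CN3 3 and CN3 4, and the libraries with a CN3 label lay within the range of those labelled EOM.

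**Figure D1:**
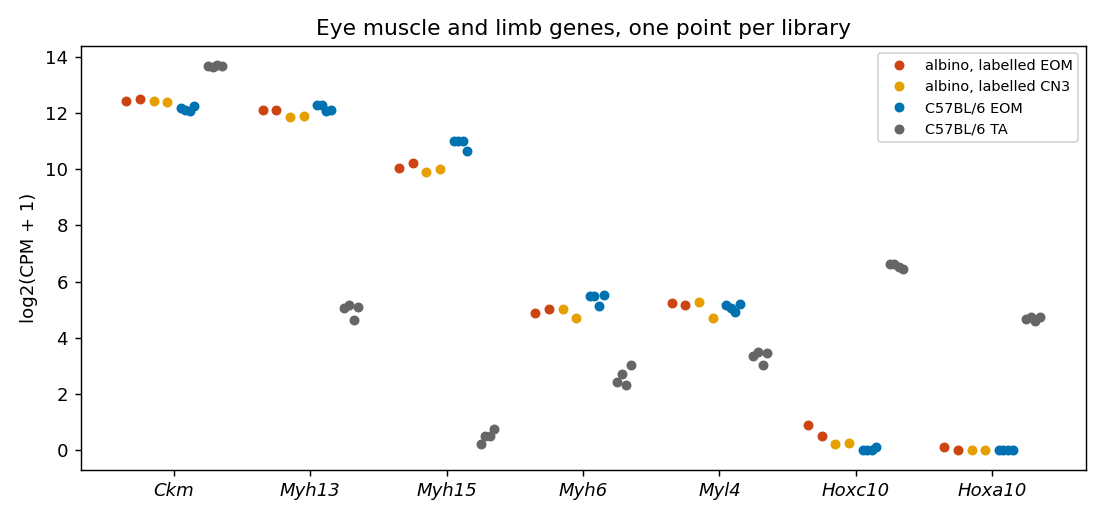
Level of 5 muscle genes and 2 limb genes in each library, as log2(CPM + 1). The albino libraries labelled EOM and CN3 sit with C57BL/6 EOM, and C57BL/6 TA stands apart, with Myh13 at 23.8 to 34.8 CPM and Hoxc10 at 86.2 to 98.7 CPM. Ckm and Myh13 chose the albino libraries, so their levels there were set by the rule and are a description.

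The 2 reassigned libraries were set against the 2 labelled albino EOM libraries, gene by gene. In edgeR's quasi-likelihood test with Benjamini-Hochberg adjustment, 0 of 15019 genes were called between the pairs at an adjusted p under 0.05 (0.0%), with a lowest adjusted p of 0.473. At an unadjusted p under 0.05 there were 444 genes (2.96%), and the DESeq2 Wald test called 4. Between pairs of 2 the precision is limited: the standard error of a gene's log2 difference had a median of 0.17, and 90% of the differences lay between −0.51 and 0.56. A difference that misses the threshold here does not show equality.

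The libraries were not copies of each other. A chi-square of their counts over genes, divided by its degrees of freedom, was 19.95 between albino EOM 3 and EOM 4, 43.4 between albino CN3 3 and CN3 4, and 19.0 to 25.2 in the 4 cross pairs. Within C57BL/6 it was 7.12 to 38.3, and in the 16 albino against C57BL/6 pairs it was 49.1 to 107. The first principal component, 36.0% of the variance, placed all albino libraries at −45.1 to −9.87 and all C57BL/6 libraries at 16.1 to 35.0. The second, 18.9%, placed albino CN3 3 at −34.2 and albino CN3 4 at 41.5, so the widest spread within the albino group was between the 2 reassigned libraries.

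**Figure D2:**
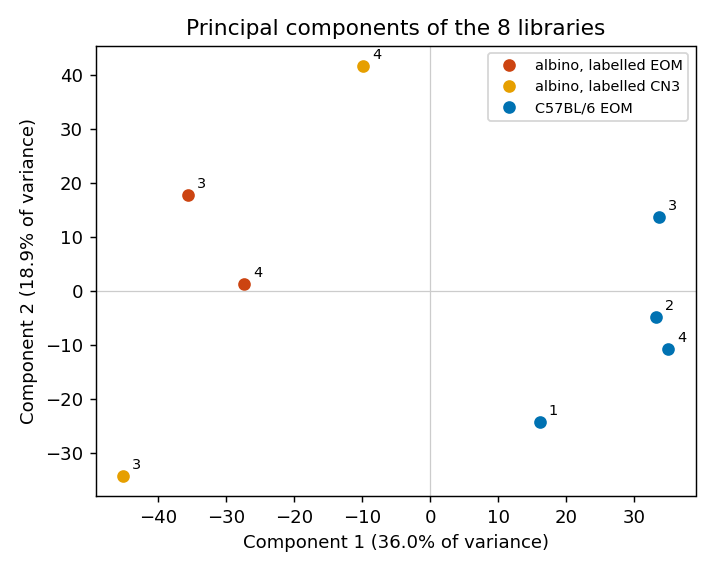
Principal components of the 8 libraries, from log2 CPM values, with the replicate number of the label beside each point. Component 1 separates albino from C57BL/6, and component 2 separates albino CN3 3 from albino CN3 4.

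Library totals were 20763187 to 23591364 counts for albino and 18544334 to 24446789 for C57BL/6. Between the genotypes, 5848 of 15019 genes were called (38.9%), 2669 higher in albino (17.8%) and 3179 lower (21.2%). Of these, 541 genes (3.6%) differed at least 2-fold, 208 higher and 333 lower, and the median log2 fold change of the called genes was 0.47 for those higher and −0.54 for those lower. With only the 2 libraries labelled EOM, 4934 genes were called (32.0%), and with only the 2 reassigned libraries, 3457 (22.4%). These comparisons share the C57BL/6 libraries. In the comparison of 4 against 4, the CPM values of the groups did not overlap in 5810 of 15019 genes (38.7%). With the upper quartile as the scale, 3502 genes were higher and 2668 lower, a share higher of 56.8% against 45.6% with TMM scaling. With all libraries as labelled, 1 gene was called, Dbp.

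Fold changes moved with base composition and transcript length. The median log2 fold change was −0.34 in the quartile of genes with the lowest GC content and 0.27 in the quartile with the highest. It was 0.28 in the quartile with the shortest exon length and −0.30 in that with the longest. With offsets for both properties in the fit, 2624 of 14476 genes were called (18.1%), 1271 higher and 1353 lower. Counts with these offsets are given below beside the lists they move. List counts are to be read against those over all genes, 17.8% higher and 21.2% lower without the offsets. Of 4 Y-linked genes tested 3 fell and 0 rose, and with the offsets 0 fell and 1 rose. Uty was at 16.4 to 19.6 CPM in albino libraries and 27.8 to 43.1 CPM in C57BL/6, while Xist, the female transcript, did not pass 0.0963 CPM in albino libraries and 0.184 CPM in C57BL/6. The log2 fold change of Uty was −0.85 ± 0.13 without the offsets and −0.07 with them (adjusted p = 0.70). Eif2s3y was at −0.02 and not called (adjusted p = 0.91), and at 0.50 with the offsets (adjusted p = 0.032). With the mean log level of the 4 Y-linked genes in the fit as a covariate, 41 genes were called (0.273%). That mean did not overlap between the genotypes, so genotype and Y-linked level cannot be told apart by this fit.

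**Figure D3:**
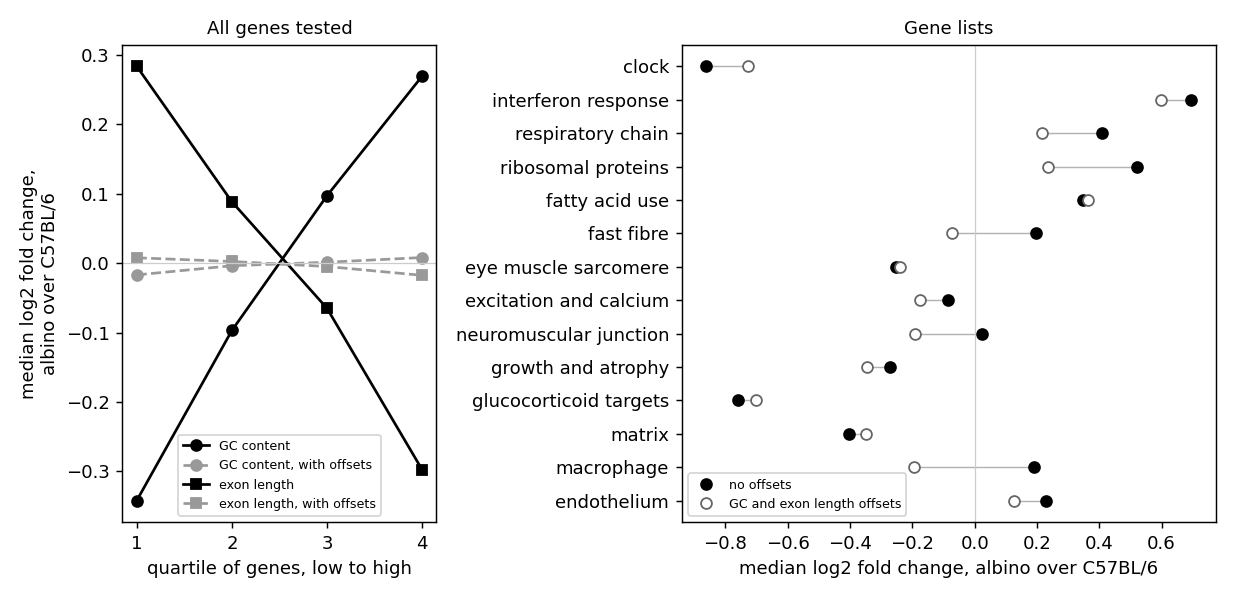
Left, median log2 fold change (albino over C57BL/6) of all genes by quartile of GC content and exon length, without offsets (black) and with them (grey). Right, median log2 fold change of 14 gene lists without offsets (filled) and with them (open): the fast fibre, neuromuscular junction and macrophage medians change sign.

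Clock genes gave the largest log2 fold change in each direction among called genes whose groups did not overlap and whose higher group averaged 5 CPM or more. Of 22 clock genes, 6 rose and 14 fell in albino EOM, with a median log2 fold change of −0.86, against 0.01 over all genes tested. With only the 2 labelled albino EOM libraries 4 rose and 14 fell, and with only the 2 reassigned libraries 4 rose and 13 fell. Leaving out each library in turn left 5 or 6 higher and 13 or 14 lower. The list's direction was the same with GC and length offsets (5 higher, 13 lower), and with the Y-linked covariate 8 of the 41 calls were clock genes. The time of collection is not given in the labels and its part in these differences was not tested.

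The promoters of 3 of these genes hold the letters that clock factors are known to bind, and are shown because the genes moved in opposite directions. The windows are RefSeq's, on GRCm38.p6, and 18 of the 22 clock genes have a window. Capitals mark CACGTG, the E-box of BMAL1 with CLOCK, in Ciart (chr3:95882229-95882478, minus strand), 116, 58 and 44 bases before the start site. In Per3 (chr4:151044666-151044915, minus strand) they mark TTANGTAA, the D-box of DBP, HLF and TEF, 205 and 158 bases before the start site. In Arntl (chr7:113207530-113207555, plus strand) they mark ANTAGGTCA, the element of the NR1D receptors, from base 29 of the transcript.
Ciart: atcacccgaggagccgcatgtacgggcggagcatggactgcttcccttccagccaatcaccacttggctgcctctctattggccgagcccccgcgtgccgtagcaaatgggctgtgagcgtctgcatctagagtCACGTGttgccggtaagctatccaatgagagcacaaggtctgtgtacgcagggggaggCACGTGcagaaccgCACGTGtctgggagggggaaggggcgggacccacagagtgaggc
Per3: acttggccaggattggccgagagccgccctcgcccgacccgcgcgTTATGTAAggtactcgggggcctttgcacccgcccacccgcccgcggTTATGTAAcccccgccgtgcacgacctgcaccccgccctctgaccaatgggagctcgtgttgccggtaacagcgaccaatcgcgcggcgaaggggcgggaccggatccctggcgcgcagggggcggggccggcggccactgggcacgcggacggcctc
Arntl: aaggcagaaAGTAGGTCAgggacgga
Both strands were searched in windows of 300 bases, from 250 before to 50 after the start. The E-box was in a window of 5 of the 18 clock genes (Bhlhe41, Ciart, Cry1, Per1 and Tef) and of 8.09% of all genes with a window. The D-box was in 1 (Per3) and in 2.72% of all such genes, and the NR1D element in 2 (Arntl and Nfil3) and 0.707%. A match describes the letters and not a bound site.

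Among the activators, Arntl was at 52.6, 48.1, 61.7 and 55.0 CPM in albino EOM 3, EOM 4, CN3 3 and CN3 4, against 4.46, 6.90, 3.78 and 4.95 CPM in C57BL/6. It rose by 3.44 ± 0.18 on the log2 scale (SE, edgeR, adjusted p = 1.5e-05), and no albino value came near a C57BL/6 value. Npas2, the partner that can replace CLOCK, was at 9.11, 8.91, 8.55 and 12.2 CPM in albino libraries, against 1.72, 2.70, 2.39 and 1.74 CPM in C57BL/6 (log2 fold change 2.18 ± 0.19, adjusted p = 8.3e-05). Clock itself, with a log2 fold change of −0.01, was not called. Nfil3, a repressor at D-boxes, rose by 1.12 on the log2 scale.

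The repressors of the loop were lower. Ciart, a repressor of BMAL1 with CLOCK, was at 1.06, 1.30, 0.508 and 1.31 CPM in albino libraries, against 14.4, 15.4, 15.2 and 13.0 CPM in C57BL/6 (log2 fold change −3.79 ± 0.23, adjusted p = 2.5e-05). Per2 was at 5.09, 7.22, 3.14 and 7.40 CPM in albino libraries, against 55.8, 70.8, 78.4 and 64.7 CPM in C57BL/6 (−3.57 ± 0.23, adjusted p = 2.5e-05). Per3 fell by 2.23 ± 0.19, and Per1 and Cry2 fell by 1.71 and 0.69 on the same scale, while Cry1 at −0.10 was not called. Nr1d2, a repressor of Arntl, was at 79.6, 93.4, 76.9 and 110 CPM in albino libraries, against 286, 336, 397 and 329 CPM in C57BL/6 (−1.91 ± 0.12, adjusted p = 2.5e-05), whereas its paralog Nr1d1 rose by 0.26.

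Outputs of the clock followed the repressors in direction. Dbp, a transcription factor at D-boxes, was at 14.7, 14.9, 11.1 and 12.8 CPM in albino libraries, against 72.1, 78.5, 62.3 and 74.0 CPM in C57BL/6 (log2 fold change −2.43 ± 0.12, adjusted p = 1.5e-05). Hlf and Tef, of the same family, fell by 2.31 and 1.14. Wee1, a cell cycle kinase known as a clock target but not on the list, was at 3.39, 6.60, 2.91 and 4.03 CPM in albino libraries, against 22.3, 23.5, 25.3 and 19.9 CPM in C57BL/6 (−2.42 ± 0.22, adjusted p = 1.0e-04). The groups did not overlap in Arntl, Npas2, Ciart, Per2, Per3, Dbp, Hlf and Wee1, but a rule that named these genes required it. In Nr1d2, named from the clock list alone, they did not overlap either. In all of these the albino libraries labelled EOM and CN3 lay together.

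**Figure D4:**
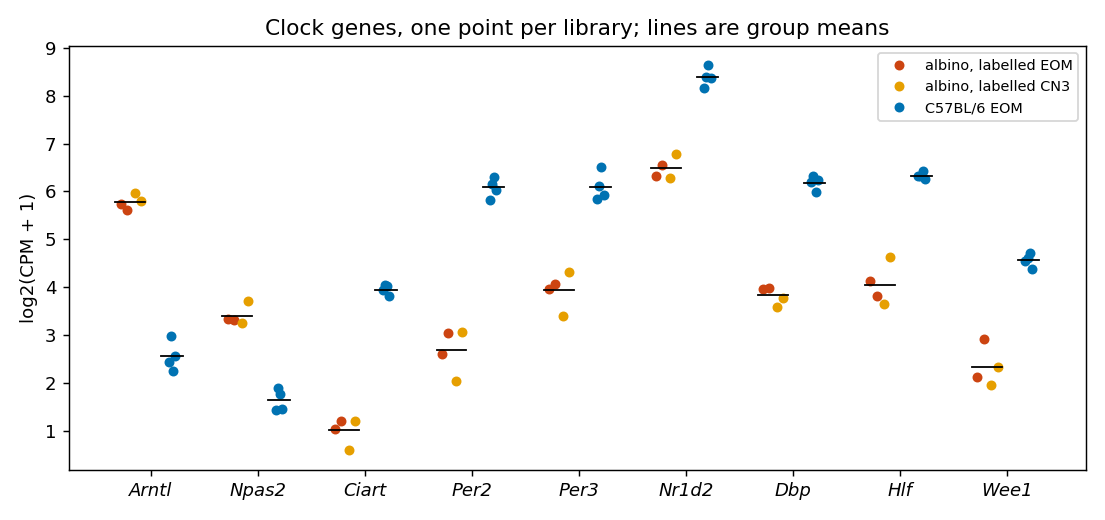
Level of 9 clock genes in each library, as log2(CPM + 1), with the mean of the 4 albino and the 4 C57BL/6 libraries as lines. Arntl and Npas2 are higher in albino libraries and the other 7 lower, with no overlap. Except for Nr1d2, the genes shown were named by a rule that required no overlap. Clock, Cry1 and Nr1d1 are not shown.

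Of 8 genes tested that are known to differ between C57BL/6 substrains, 2 rose, 3 fell and 3 were not called (all genes 17.8% higher and 21.2% lower). Of those named below, only Wdfy1 was among the 12 largest changes in its direction. Nnt, which makes mitochondrial NADPH and carries a deletion in C57BL/6J mice as background, was at 163, 166, 173 and 142 CPM in albino libraries, against 498, 489, 460 and 478 CPM in C57BL/6. It fell by 1.58 ± 0.09 on the log2 scale (edgeR, adjusted p = 2.2e-05), with no overlap (chromosome 13, 119335448 to 119408997, minus strand, mm10). Wdfy1, an endosomal adapter protein, was at 8.65, 8.62, 7.26 and 12.5 CPM in albino libraries, against 38.0, 38.2, 45.5 and 38.0 CPM in C57BL/6 (−2.11 ± 0.14, adjusted p = 2.5e-05). Mmrn1, a carrier protein of platelets and endothelium, fell by 1.78 ± 0.23 and was at 4.96 to 12.1 CPM in albino libraries, against 24.7 to 33.1 CPM in C57BL/6. Entpd4, a nucleotidase of the Golgi, was at 209, 233, 207 and 181 CPM in albino libraries, against 94.4, 97.0, 82.8 and 85.9 CPM in C57BL/6 (1.21 ± 0.10, adjusted p = 6.6e-05). Mouse Entpd4 has a near-identical neighbouring copy, so its reads may be split or shared.

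Tyr was barely detected in this muscle. It was at 0.424, 0.0963, 0.370 and 0.0468 CPM in albino libraries, against 0.573, 0.324, 0.348 and 0.642 CPM in C57BL/6, with overlap, and it was too low to pass the filter for the test (chromosome 7, 87424771 to 87493512, minus strand, mm10). Within 5 Mb of it, 7 of 27 genes tested were called (25.9%), all lower, against 38.9% over all genes. This direction did not hold with the offsets. Folh1 and Fzd4 were still called lower, while Picalm, Nox4, Tmem135, Ctsc and Dlg2 were not called. Me3, Sytl2, Tmem126a and Tmem126b were then called higher (edgeR, adjusted p = 0.0017 to 0.034). Of 13 melanin and melanocyte genes tested, 1 rose and 5 fell (all genes 17.8% and 21.2%), or 1 and 3 with the offsets. Tyrp1, a later enzyme of the same pathway, was at 2.46, 1.88, 1.85 and 2.06 CPM in albino libraries, against 5.52, 3.88, 3.87 and 5.60 CPM in C57BL/6 (log2 fold change −1.20 ± 0.22, adjusted p = 0.0021). Rab27a, which carries vesicles and is not limited to pigment cells, rose by 0.81 ± 0.09, and Ednrb, an endothelin receptor, fell by 0.86 ± 0.13. Mitf, the melanocyte transcription factor that is also active in other cells, fell by 0.57 ± 0.10 but was not called with the offsets (adjusted p = 0.076).

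The contractile genes that set eye muscle apart were lower where they changed. Of 12 such genes, 0 rose and 6 fell, with a median log2 fold change of −0.25. Myh13, which chose the libraries, is on the list and was not among them. With only the 2 labelled albino EOM libraries 3 fell. Myh15, a slow myosin of eye muscle and spindle fibres, was at 1049, 1182, 964 and 1033 CPM in albino libraries, against 2045, 2030, 2041 and 1618 CPM in C57BL/6 (−0.87 ± 0.09, edgeR, adjusted p = 1.6e-04). Its highest albino value lay below its lowest C57BL/6 value. Myh6 was at 28.7, 31.8, 31.6 and 25.4 CPM in albino libraries, against 44.1, 43.6, 34.5 and 45.4 CPM in C57BL/6 (−0.51 ± 0.13, adjusted p = 0.0098). Myh8, the perinatal myosin, fell by 0.28 ± 0.08 and was not called with the offsets (adjusted p = 0.37). Myh10, a non-muscle myosin, fell by 0.59 ± 0.07.

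Of 18 fast fibre genes, 9 rose and 4 fell, but with the GC and length offsets 1 rose and 3 fell and the median changed sign, 0.20 without the offsets and −0.07 with them. Ckm, which chose the libraries, is among the 9. Pvalb, the calcium buffer of fast fibres, was at 4879, 4214, 5213 and 5015 CPM in albino libraries, against 3262, 3124, 3124 and 3343 CPM in C57BL/6. Its log2 fold change was 0.59 ± 0.08 (adjusted p = 6.1e-04) without the offsets and 0.30 (adjusted p = 0.061) with them. Troponins Tnnc2 and Tnnt3 rose by 0.44 and 0.30, and the kinase of the regulatory light chain Mylk2 by 0.28, and with the offsets these values were −0.03, −0.04 and −0.02, none called. The fast myosins Myh1, Myh2 and Myh4 were among the 4 that fell, by 0.31 to 0.39, and the count lower was 2 without albino EOM 3, albino CN3 3 or C57BL/6 EOM 1, 2 or 4, each left out alone. Of 14 slow fibre genes 1 rose and 2 fell, or 0 and 1 with the offsets.

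Of 22 genes of excitation and calcium handling 3 rose and 9 fell, with a median log2 fold change of −0.09. The count lower was 5 with the offsets, and 5, 5 and 4 without albino EOM 3, albino CN3 4 and C57BL/6 EOM 4. Kcnj2, the potassium channel that holds the resting potential, was at 77.3, 76.1, 75.9 and 85.9 CPM in albino libraries, against 136, 153, 138 and 156 CPM in C57BL/6 (log2 fold change −0.89 ± 0.08, adjusted p = 6.6e-05). Jph1, which ties the calcium store to the surface membrane, fell by 0.60 ± 0.07, and both kept an adjusted p under 0.05 with the offsets. Trdn, which anchors calsequestrin at the ryanodine receptor, fell by 1.02 ± 0.12 and Pln, the brake of the calcium pump, by 0.55 ± 0.07. With the offsets Trdn was at −0.31 and Pln at −0.25, neither called (adjusted p = 0.15 and 0.16).

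At the neuromuscular junction 3 of 19 genes rose and 4 fell, near the share of all genes, and with the offsets 0 rose and 6 fell. The receptor subunits Chrna1, Chrnb1, Chrnd, Chrne and Chrng had log2 fold changes of −0.09 to 0.05 and none was called. Musk, the receptor kinase that clusters them, was at 10.2, 12.9, 12.3 and 11.0 CPM in albino libraries, against 20.9, 19.9, 19.1 and 19.8 CPM in C57BL/6 (−0.78 ± 0.11, adjusted p = 5.4e-04). Etv5, a transcription factor of synaptic nuclei, fell by 0.44 ± 0.08. Utrn, the synaptic relative of dystrophin, fell by 0.75 ± 0.10 and Colq, the collagen tail of acetylcholinesterase, rose by 0.49 ± 0.07, and neither was called with the offsets (adjusted p = 0.067 and 0.053).

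Of 16 myogenic regulators tested, 4 rose and 4 fell (all genes 17.8% and 21.2%), and with the offsets 0 rose and 2 fell. The count higher was 2 without albino CN3 3, albino CN3 4, C57BL/6 EOM 3 or C57BL/6 EOM 4. Myod1 was at 20.1, 25.2, 22.7 and 19.8 CPM in albino libraries, against 14.9, 13.5, 13.1 and 11.9 CPM in C57BL/6 (0.72 ± 0.12, adjusted p = 0.0011). Mef2c, a transcription factor of mature fibres, fell by 0.73 ± 0.10. With the offsets both missed the threshold, at 0.30 (adjusted p = 0.13) and −0.08 (adjusted p = 0.70).

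Genes of fatty acid use were mostly higher. Of 30 genes of fatty acid use, many of them targets of the PPAR receptors, 21 rose and 4 fell, with a median log2 fold change of 0.35, and with the offsets 14 rose and 1 fell at a median of 0.36. With only the 2 reassigned libraries 12 rose, and without C57BL/6 EOM 4 the count lower was 2. Pdk4, which shuts pyruvate out of the mitochondrion's main cycle, was at 353, 723, 385 and 395 CPM in albino libraries, against 119, 153, 200 and 121 CPM in C57BL/6 (1.66 ± 0.25, edgeR, adjusted p = 7.9e-04). Albino EOM 4 stood above the other 3 albino libraries, all of which lay above C57BL/6.

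Ucp3, a mitochondrial carrier of muscle, was at 102, 148, 102 and 96.7 CPM in albino libraries, against 24.6, 46.4, 46.3 and 23.6 CPM in C57BL/6 (1.68 ± 0.25, adjusted p = 7.0e-04). Angptl4, a secreted inhibitor of lipoprotein lipase, was at 32.3, 40.3, 37.8 and 27.4 CPM in albino libraries, against 10.6, 13.0, 16.5 and 10.3 CPM in C57BL/6 (1.46 ± 0.17, adjusted p = 2.6e-04). Mlycd, which removes malonyl-CoA, and Eci1, an enzyme of unsaturated fat oxidation, rose by 0.92 ± 0.09 and 0.87 ± 0.09. Plin5, which ties lipid droplets to mitochondria, rose by 1.00 ± 0.13. Against these, Ppargc1a and Ppara, the coactivator and receptor that drive many such genes, fell by 0.53 and 0.52.

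Of 44 nuclear-encoded subunits of the respiratory chain, 35 rose and 0 fell, with a median log2 fold change of 0.41. With the offsets 14 rose and 0 fell, and the median was 0.21. With only the 2 reassigned libraries 21 rose. Cox7a1 and Cox8b, muscle isoforms of cytochrome oxidase, rose by 0.76 ± 0.08 and 0.85 ± 0.12, with Cox8b at 884, 883, 916 and 701 CPM in albino libraries against 468, 486, 421 and 509 CPM in C57BL/6. With the offsets neither was called (0.24 and 0.29, adjusted p = 0.12 and 0.16). The list's median exon length is 2014.5 bases, against 4383 bases over all genes with an annotation.

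Of 38 cytosolic ribosomal protein genes tested, 33 rose and 0 fell, with a median of 0.52, and with the offsets 13 rose and 1 fell at a median of 0.24. Rpl13, of the large subunit, was at 285, 246, 258 and 287 CPM in albino libraries, against 190, 176, 160 and 182 CPM in C57BL/6, and its log2 fold change was 0.60 ± 0.08 without offsets and 0.40 with them, called in both. Rps16, of the small subunit, rose by 0.59 ± 0.07. These genes have many processed copies in the genome and a median exon length of 1752 bases, so their counts are uncertain.

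Of 22 glycolysis and lactate genes 6 rose and 2 fell, and with the offsets 1 rose and 1 fell. With upper quartile scaling 15 rose. Ldhb, the heart form of lactate dehydrogenase, rose by 0.51 ± 0.09 and was at 0.17 with the offsets (adjusted p = 0.29). Hk2, the muscle hexokinase, fell by 0.39 ± 0.08 and was called with the offsets too. Of 22 genes of mitochondrial NADPH and antioxidant defence 7 rose and 5 fell (all genes 17.8% and 21.2%). With the offsets 5 rose and 3 fell. The largest of these changes was in Nnt. Nfe2l2 fell by 0.73 ± 0.09 (edgeR, adjusted p = 3.0e-04) and was called lower with the offsets too (−0.66, adjusted p = 0.0018). Sod1, the cytosolic superoxide dismutase, was at 252, 225, 232 and 214 CPM in albino libraries, against 167, 158, 162 and 163 CPM in C57BL/6 (0.51 ± 0.07, adjusted p = 5.6e-04). Prdx5, a peroxiredoxin, rose by 0.62 ± 0.08, at 0.26 with the offsets (adjusted p = 0.091), and the mitochondrial Sod2 was not called (−0.15).

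**Figure D5:**
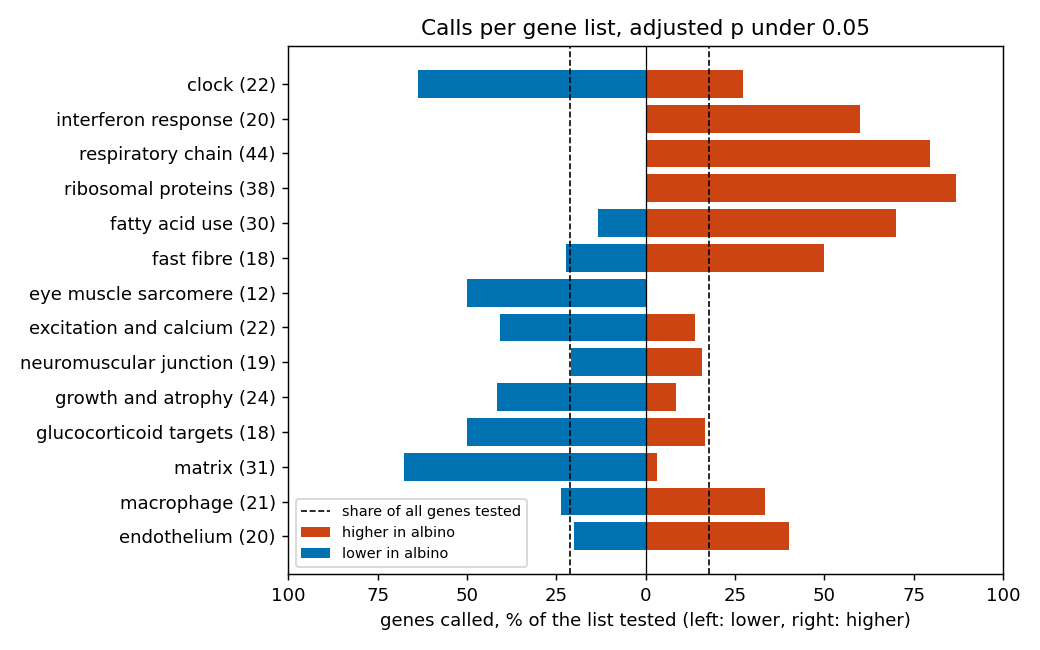
Share of the tested members of 14 gene lists that were called higher (right) or lower (left) in albino EOM, with the number tested in brackets. Dashed lines mark the share of all genes tested, 17.8% higher and 21.2% lower.

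Genes of muscle growth and atrophy were mostly lower where they changed. Of 24, 2 rose and 10 fell, with a median log2 fold change of −0.27, and the offsets gave 3 and 10. Igf1, the growth factor made in muscle and other tissues, was at 57.3, 52.6, 47.0 and 73.0 CPM in albino libraries, against 116, 142, 131 and 128 CPM in C57BL/6 (−1.18 ± 0.11, edgeR, adjusted p = 1.1e-04). Foxo1, a transcription factor that raises the atrophy programme, was at 31.3, 35.3, 28.7 and 34.7 CPM in albino libraries, against 49.0, 49.6, 57.2 and 50.7 CPM in C57BL/6 (−0.67 ± 0.08, adjusted p = 2.6e-04). The atrophy ligases Fbxo32 and Trim63, at 0.13 and 0.21, were not called, and Mstn, the growth inhibitor myostatin, fell by 0.79.

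Eda2r, a receptor of ectodysplasin A2, was at 9.33, 12.5, 13.4 and 15.0 CPM in albino libraries, against 29.1, 31.2, 32.4 and 27.7 CPM in C57BL/6 (−1.26 ± 0.13, adjusted p = 1.4e-04). Cdkn1a, the cell cycle inhibitor p21, was at 99.6, 129, 85.4 and 108 CPM in albino libraries, against 49.1, 49.99, 54.6 and 46.6 CPM in C57BL/6 (1.08 ± 0.11, adjusted p = 1.5e-04). The groups did not overlap in either gene, which held for 38.7% of all genes tested.

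Of 18 targets of the glucocorticoid receptor 3 rose and 9 fell, with a median of −0.76, and the offsets gave 2 and 9. With only the 2 labelled albino EOM libraries 7 fell, at a median of −0.45. With only the 2 reassigned libraries 12 fell, at a median of −1.04. Fkbp5, a chaperone that damps the receptor, was at 52.7, 38.4, 28.7 and 36.1 CPM in albino libraries, against 93.7, 99.7, 131 and 106 CPM in C57BL/6 (−1.47 ± 0.17, adjusted p = 2.1e-04). Klf9, a transcription factor, was at 137, 179, 138 and 140 CPM in albino libraries, against 251, 293, 239 and 251 CPM in C57BL/6 (−0.80 ± 0.11, adjusted p = 5.9e-04). Pik3r1, a regulatory subunit of phosphoinositide 3-kinase, fell by 0.97 ± 0.12. The 3 that rose were Pdk4 and Angptl4, also on the fatty acid list, and Mt1, a metallothionein (0.31). Per1 is on this list and the clock list.

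Of 27 trophic factor and retinoic acid genes 5 rose and 7 fell, near the shares of all genes (17.8% and 21.2%). Lifr, the receptor of leukaemia inhibitory factor, was at 72.5, 68.6, 64.5 and 95.5 CPM in albino libraries, against 129, 139, 163 and 139 CPM in C57BL/6 (−0.93 ± 0.11, adjusted p = 2.2e-04). Fgf2, a growth factor of satellite cells, fell by 1.16 ± 0.23, and Dhrs3, which returns retinal to retinol, rose by 0.67 ± 0.08. Bdnf and Ntf3 were not called (0.20 and 0.29).

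Matrix genes of tendon and fibroblasts were lower. Of 31, 1 rose and 21 fell, with a median log2 fold change of −0.40, or 1 and 17 with the offsets, and 12 fell with only the 2 labelled albino EOM libraries. In bulk tissue fewer cells of a type and less RNA per cell cannot be told apart. Col14a1, a collagen at the surface of fibrils, was at 45.9, 52.8, 49.4 and 55.3 CPM in albino libraries, against 139, 123, 106 and 107 CPM in C57BL/6 (−1.23 ± 0.10, edgeR, adjusted p = 5.1e-05). Lox, which crosslinks collagen, was at 15.7, 15.7, 16.1 and 15.3 CPM in albino libraries, against 32.2, 29.1, 37.8 and 34.1 CPM in C57BL/6 (−1.08 ± 0.09, adjusted p = 6.2e-05). Ddr2, a collagen receptor of fibroblasts, fell by 0.85 ± 0.08. Postn, a secreted matrix protein, fell by 0.90 ± 0.09 and was not called with the offsets (−0.21, adjusted p = 0.18). The summed level of the list was 7120 to 7716 CPM in albino libraries and 8805 to 10530 CPM in C57BL/6.

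Endothelial genes were mixed, with 8 of 20 higher and 4 lower, and with the offsets 5 higher and 0 lower. Cldn5, the tight junction protein of vessels, was at 22.6, 19.2, 17.8 and 33.9 CPM in albino libraries, against 7.40, 5.72, 5.13 and 6.38 CPM in C57BL/6 (log2 fold change 1.91 ± 0.20, adjusted p = 1.5e-04). Egfl7, a protein secreted by endothelium, was at 92.2, 82.0, 87.1 and 99.3 CPM in albino libraries, against 33.1, 28.0, 35.2 and 33.2 CPM in C57BL/6 (1.47 ± 0.08, adjusted p = 1.5e-05). Aplnr, the apelin receptor, rose by 1.52 ± 0.20. Ptprb fell by 0.68 ± 0.11 (edgeR, adjusted p = 0.0012) and was not called with the offsets (adjusted p = 0.097). The general endothelial markers Pecam1 and Cdh5 had log2 fold changes of −0.02 and 0.10 and were not called, and the list summed to 1314 to 1420 CPM in albino libraries and 1164 to 1423 CPM in C57BL/6.

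Of 13 pericyte and smooth muscle genes 4 rose and 2 fell (all genes 17.8% and 21.2%), or 0 and 1 with the offsets. Rgs5, a pericyte regulator of G proteins, fell by 0.80 ± 0.12 and was called in both fits. Abcc9, a subunit of potassium channels in pericytes and muscle, fell by 0.61 ± 0.09 and missed the threshold with the offsets (adjusted p = 0.051). Of those that rose, Kcnj8 and Higd1b did so by 0.53 ± 0.11 and 0.72 ± 0.17 (edgeR, adjusted p = 0.0043 and 0.0066). Neither was called with the offsets (adjusted p = 0.13 and 0.22).

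Among macrophage genes 7 of 21 rose and 5 fell, and the median changed sign with the offsets, 0.19 without them and −0.19 with them (4 higher, 7 lower). The count lower was 3 without albino EOM 3, albino EOM 4, albino CN3 4 or C57BL/6 EOM 1. The class II genes H2-Ab1 and H2-Eb1, which present antigen, rose in both fits, and Lyve1 and Cd163, markers of resident macrophages, fell in both. H2-Ab1 was at 124, 80.2, 127 and 98.4 CPM in albino libraries, against 54.4, 49.2, 48.6 and 38.7 CPM in C57BL/6 (1.17 ± 0.15, adjusted p = 3.9e-04), and H2-Eb1 rose by 1.06 ± 0.14. Lyve1, a hyaluronan receptor of perivascular macrophages and lymphatics, was at 36.7, 42.3, 32.5 and 41.3 CPM in albino libraries, against 88.3, 91.1, 95.6 and 75.4 CPM in C57BL/6 (−1.20 ± 0.09, adjusted p = 4.5e-05). Cd163, the haemoglobin scavenger receptor, fell by 1.13 ± 0.13.

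Of 20 interferon response genes 12 rose and 0 fell, with a median log2 fold change of 0.70, and 9 rose and 0 fell with the offsets. With only the 2 labelled albino EOM libraries 8 rose and 1 fell, and with only the 2 reassigned libraries 14 rose and 0 fell. Rsad2, an antiviral enzyme, was at 15.6, 13.4, 20.01 and 16.3 CPM in albino libraries, against 9.29, 7.28, 7.66 and 7.34 CPM in C57BL/6 (1.05 ± 0.14, adjusted p = 5.2e-04). Isg15, a ubiquitin-like protein, was at 6.36, 7.80, 9.47 and 11.1 CPM in albino libraries, against 4.05, 3.56, 3.57 and 2.98 CPM in C57BL/6 (1.29 ± 0.19, adjusted p = 7.1e-04). Irf7 and Ifi27 rose by 0.76 ± 0.12 and 0.66 ± 0.08. The signal carrier Stat2, at 0.39, was not called.

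Of 16 Schwann cell and myelin genes 1 rose and 3 fell (all genes 17.8% and 21.2%), or 0 and 4 with the offsets. Cdh19, a cadherin of Schwann cells, was at 10.004, 10.5, 11.9 and 11.7 CPM in albino libraries, against 20.2, 26.0, 29.3 and 20.8 CPM in C57BL/6 (−1.12 ± 0.13, adjusted p = 2.2e-04), while the myelin gene Mbp was not called (−0.03). Of 20 Wnt genes 5 rose and 6 fell (all genes 17.8% and 21.2%), or 2 and 5 with the offsets. Among the secreted modulators Dkk3 rose by 0.72 ± 0.10 and Sfrp2 fell by 0.78 ± 0.13, both called with the offsets, and Sfrp5 rose by 0.78 ± 0.09 (adjusted p = 0.052 with the offsets). The receptor Fzd4 fell by 0.89 ± 0.16.

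Some lists were set by single libraries. Of 16 immediate early genes 4 rose and 1 fell, or 1 and 1 with the offsets, where Junb and Ier2 were not called (adjusted p = 0.074 and 0.085). In the fit without offsets 7 were higher when albino CN3 3 was left out and 2 when C57BL/6 EOM 1, 3 or 4 was, and the list's summed level was 278 to 2216 CPM in albino libraries against 451 to 517 CPM in C57BL/6. Junb, a subunit of AP-1, was at 18.9, 34.0, 14.1 and 104 CPM in albino libraries, against 10.3, 10.2, 11.6 and 11.6 CPM in C57BL/6 (1.93 ± 0.53, adjusted p = 0.016). Without albino CN3 4 its log2 fold change was 1.06. Ier2 was at 14.7, 21.4, 8.87 and 92.8 CPM in albino libraries, against 7.20, 9.06, 7.70 and 6.10 CPM in C57BL/6 (2.16 ± 0.62, adjusted p = 0.020), with 1.04 without albino CN3 4, and the call was lost without C57BL/6 EOM 1, 3 or 4, at an adjusted p of up to 0.053. Arc, a synaptic and muscle transcript, rose by 1.15 ± 0.19 and Nr4a3, a nuclear receptor, fell by 0.75 ± 0.19. The handling of the tissue before extraction is not given in the labels and its part was not tested.

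Of 18 heat shock and unfolded protein genes 5 rose and 3 fell (all genes 17.8% and 21.2%), with 0 and 4 under the offsets. The count higher was 3 without albino EOM 3, C57BL/6 EOM 1, C57BL/6 EOM 2 or C57BL/6 EOM 3, each left out alone. Dnajb9, a chaperone of the endoplasmic reticulum, was at 31.1, 30.0, 34.0 and 37.6 CPM in albino libraries, against 52.3, 61.6, 73.4 and 64.2 CPM in C57BL/6 (−0.92 ± 0.10, adjusted p = 2.1e-04). Atf4, a stress transcription factor, rose by 0.45 ± 0.07, at 0.13 with the offsets (adjusted p = 0.28).

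Transcripts of other tissues were present at low and uneven levels. Gh, growth hormone of the pituitary, was at 9.75, 0.674, 1.85 and 0.375 CPM in albino libraries and had 0 counts in all 4 C57BL/6 libraries, where 3 counts would be 0.123 to 0.162 CPM. Ttr, made in the choroid plexus, was at 7.12, 0.915, 0.555 and 1.22 CPM in albino libraries and at most 0.0918 CPM in C57BL/6. Of 7 pituitary and choroid plexus genes tested 2 rose and 0 fell, or 1 and 0 with the offsets. The 2 were Ttr (adjusted p = 0.0029) and Pomc, the corticotropin precursor, at 4.58, 0.674, 0.555 and 0.843 CPM in albino libraries, against 0.409, 0.324, 0.174 and 0 CPM in C57BL/6 (adjusted p = 0.030). The Pomc call was lost with the offsets (adjusted p = 0.086) and without albino EOM 3 or C57BL/6 EOM 2, 3 or 4, at an adjusted p of up to 0.13. In the C57BL/6 CN3 libraries Gh was at 5.02 to 362 CPM. Krt12, a keratin of the cornea, was at 148, 4.33, 20.4 and 1.22 CPM in albino libraries and 0.941, 13.2, 14.8 and 0.734 CPM in C57BL/6, with wide overlap (2.58 ± 1.32, adjusted p = 0.15). Of 18 neuron genes 0 rose and 1 fell, and the list summed to 261 to 401 CPM in albino libraries and 265 to 402 CPM in C57BL/6. Of 19 gland and surface epithelium genes 0 rose and 1 fell, and the list summed to 144 to 1701 CPM in albino libraries and 257 to 1350 CPM in C57BL/6. Of 12 lymphocyte and granulocyte genes 0 were called. Of 10 fat cell genes 1 rose, of 6 cartilage and bone genes 1 rose, and of 15 sterol and fatty acid synthesis genes 2 rose and 1 fell, while 0 of 5 retina, 0 of 3 blood and 0 of 4 limb genes were called. With the offsets 0 neuron and brain genes and 0 gland genes were called, and 1 lymphocyte and granulocyte gene fell. In that fit 2 cartilage and bone genes fell and 0 rose, and 0 sterol and fatty acid synthesis genes were called. The part of other tissue in the results above was not tested.

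Among the 12 largest changes in each direction, several belonged to none of these lists. Tmem171, a membrane protein, was at 11.0, 12.6, 14.4 and 7.54 CPM in albino libraries, against 2.54, 2.26, 2.35 and 1.65 CPM in C57BL/6 (log2 fold change 2.38 ± 0.24, edgeR, adjusted p = 1.3e-04). Spon2, a secreted matrix protein, and Ppp1r27, a subunit of protein phosphatase 1, rose by 2.15 ± 0.23 and 2.09 ± 0.25. Slc25a34, a mitochondrial carrier, was at 131, 144, 161 and 97.2 CPM in albino libraries, against 39.7, 48.7, 40.2 and 38.2 CPM in C57BL/6 (1.68 ± 0.16, adjusted p = 1.2e-04). Klhdc8a, a kelch domain protein, and Tcf15, a transcription factor of muscle endothelium, rose by 1.63 ± 0.11 and 1.53 ± 0.15.

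In the other direction, Hif3a, a member of the hypoxia-inducible factor family, was at 1.61, 0.819, 0.647 and 1.69 CPM in albino libraries, against 5.64, 4.64, 8.70 and 5.14 CPM in C57BL/6 (−2.34 ± 0.33, adjusted p = 5.7e-04). Stc1, the secreted hormone stanniocalcin, fell by 2.20 ± 0.30 and Gpr165, a receptor of the G protein class, by 2.14 ± 0.16. Neto2, an auxiliary subunit of kainate receptors, was at 5.38, 3.76, 5.13 and 5.11 CPM in albino libraries, against 19.1, 17.0, 18.9 and 18.9 CPM in C57BL/6 (−1.93 ± 0.12, adjusted p = 2.5e-05), and Pcdh20, a protocadherin, fell by 2.02 ± 0.25.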

How the data were processed

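RNA was sequenced from 32 samples, and 8 libraries are used here. The values deposited by the authors are raw counts of reads for 24421 gene symbols, not normalized. Per the submitters' processing notes, the tools were Trimmomatic 0.33, FastQC, HISAT2 2.1.0, featureCounts and edgeR, with build mm10. The annotation, strand setting and filters are not given in the sources used here, so a gene and a partner on the other strand cannot be told apart. Of the symbols, 27 are date-like and held at most 0.156% of a library. No mitochondrially encoded gene of the list for them is in the table.

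Tissue of the albino libraries was set by the marker rule (Ckm and Myh13 each above 1000 CPM) against the labels of 2 of them, and genotype was taken from the labels. CPM values are counts scaled to the deposited library total. Counts were tested in R 4.3.3 with edgeR 4.0.16 (filterByExpr, TMM, quasi-likelihood F test, two-sided, Benjamini-Hochberg over all genes tested, called at an adjusted p under 0.05). The standard error is the log2 fold change divided by the square root of F. The fit was checked on simulated data. Positions, GC content and exon length are GENCODE's on the same build, found for 96.4% of the genes tested, and entered the fit as splines (natural, 5 degrees of freedom for each property).

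Members and gene lists were chosen with earlier results of these data known. Named are Tyr, Nnt, Ckm, Myh13, Myh15, the 12 largest changes per direction (called, groups not overlapping, at least 5 CPM in the higher group, also called with the 2 labelled albino EOM libraries, no model-number symbols) and, from each list, the 4 members or fewer of lowest adjusted p. Other list members were named after their values were seen, to give a family's range, and some genes are not reported here. Lists are described by counts and medians, with no test. Alternatives were DESeq2 size factors, upper quartile factors, no filter, a minimum of 1 CPM in 4 libraries or more, DESeq2 1.42.0 (Wald test), limma 3.58.1 voom with sample weights, single libraries left out, a replicate block, GC and length offsets and a Y-linked covariate.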

Additional observations from a re-analysis of the deposited data

Results flagged for a closer look

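In 110 measures, each in both groups of 4 (220.0 groups), 21 had a library far from the other 3 by Dixon's test at 95%, where chance flags about 1 in 20. Several were in albino EOM 3. Snap25 was at 56.9 CPM there and at 7.71 to 12.7 CPM in the other 3 albino libraries, Gh at 9.75 against 0.375 to 1.85 CPM, Ttr at 7.12 against 0.555 to 1.22 CPM, Pomc at 4.58 against 0.555 to 0.843 CPM, and Krt12 at 148 against 1.22 to 20.4 CPM. Uty was lower there, at 16.4 CPM against 19.1 to 19.6 CPM. Without albino EOM 3 the log2 fold change of Snap25 was −0.91 (not called).

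In albino EOM 4, Ucp3 was at 148 CPM (others 96.7 to 102), Pdk4 at 723 CPM (353 to 395), Klf9 at 179 CPM (137 to 140) and Neto2 at 3.76 CPM (5.11 to 5.38). In albino CN3 4, Ier2 was at 92.8 CPM (8.87 to 21.4), Npas2 at 12.2 CPM (8.55 to 9.11), Kcnj2 at 85.9 CPM (75.9 to 77.3), Cox8b at 701 CPM (883 to 916) and Ldhb at 926 CPM (1081 to 1097).

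Among the C57BL/6 libraries, Rn45s, the ribosomal RNA precursor, took 1.31% of the counts of C57BL/6 EOM 3, against 0.130% to 0.264% in the other 3. Myh6 was at 34.5 CPM (43.6 to 45.4) and Wdfy1 at 45.5 CPM (38.0 to 38.2) in that library. Myh15 was at 1618 CPM (2030 to 2045) and Postn at 238 CPM (272 to 276) in C57BL/6 EOM 4, and Neto2 at 17.0 CPM (18.9 to 19.1) in C57BL/6 EOM 2. Apart from Pomc, whose call was lost without albino EOM 3 (adjusted p = 0.13), no call of these genes was lost by leaving out the library named for it, and the log2 fold change of Ier2 moved to 1.04 without albino CN3 4. The cause of these values was not tested.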

How the results depend on the processing

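Of 5848 genes called between the genotypes, the counts under DESeq2 size factors, upper quartile factors, both filters, the DESeq2 Wald test and limma voom were 5443 to 6424, and 4706 to 6021 with single libraries left out. The count was 3457 with only the 2 reassigned libraries, 2624 with GC and exon length offsets, 41 with the Y-linked covariate and 1 with all libraries as labelled, where the albino group holds 2 libraries that did not meet the marker rule. With only the 2 labelled albino EOM libraries it was 4934, 1559 with the offsets, 14 with the covariate, and 2738 to 4811 with single libraries left out, lowest without albino EOM 3, which leaves 1 albino library assumed to vary like the C57BL/6 libraries. Between the 2 albino pairs the count of 0 became 4 with DESeq2 and 0 to 6 with single libraries left out (6 when albino CN3 3, 2 when albino EOM 4 and 1 when albino EOM 3 was left out). The cause of these differences was not tested.

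Same-numbered libraries of the 2 genotypes did not deviate together (correlations of −0.27 to 0.11, against −0.44 to 0.30 for different numbers). Whether a number marks a shared batch is not given in the labels and was not tested. With a replicate block 3144 genes were called, and 2641 with only the labelled albino EOM libraries. The albino libraries used carry only the numbers 3 and 4. In the block fits the genotype difference therefore rests on C57BL/6 EOM 3 and 4, and C57BL/6 EOM 1 and 2 add nothing to it. With the block and the offsets together the counts were 223 and 419.

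With the offsets Tnnc2 (−0.027), Mylk2 (−0.021) and Tnnt3 (−0.041) changed direction, and with the block as well Mylk2 (−0.079) and Tnnt3 (−0.045). Snap25, not called at 0.22 ± 0.66, was at −0.78 with only the reassigned libraries and at −0.91 to 0.65 with single libraries left out. Depth limits genes near 1 CPM, at about 20 reads a library. Genotype, GC response, Y-linked level and any difference in handling between the groups cannot be told apart with 4 libraries a genotype.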
